A study of Mus musculus with 12 samples.

Results

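The 33 genes described here encode enzymes of cholesterol and fatty acid synthesis and the proteins that regulate them, and they were taken by gene symbol from the 54532 genes of an expression table of cultured mouse astrocytes. They comprised 18 enzymes of the sterol pathway, 6 regulators of the SREBP system and 9 enzymes of fatty acid synthesis and desaturation. All 33 symbols had a row in the table. The series measured RNA of astrocytes in 12 libraries, as 3 experiments that each set a tested group of 2 libraries against a control group of 2 libraries of its own. Its title names O-GlcNAcylation, the attachment of a sugar to proteins by the enzyme OGT, in astrocyte reactivation and Alzheimer's disease. The cells were cultured from dissociated cortex and hippocampus of C57BL/6 mice, total RNA was taken with TRIzol, and no sorting of cells is described.

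In the first experiment, Ogt cKO astrocytes were set against their control, both from mice 4 months old. The genotype label reads Glast-CreERT2::Ogtfloxp/Y in both groups, that is, a floxed Ogt allele and an inducible Cre under the promoter of the astrocyte glutamate transporter Glast, and only the sample descriptions tell knockout from control. No inducing treatment is described in the sources used here. In the second experiment, astrocytes of mice labelled as a 5X APP Alzheimer's model (AD model) were set against astrocytes of wild-type mice (AD control), all 6 months old by the sample labels and 5 months old by the series text. In the third experiment, wild-type astrocytes of mice 2 months old received 20 µM amyloid-β peptide 1-42 (Aβ-treated) or stayed untreated (Aβ control), and the exposure is given as 72 hours, with 73 hours for 1 of the 2 treated samples. Whether the libraries of a group stem from different mice or dishes is not labelled, so the p-values below measure only the spread between these libraries, which may be technical.

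Cells make cholesterol from acetyl-CoA through mevalonate, farnesyl diphosphate, squalene and lanosterol. When sterols in the endoplasmic reticulum run low, the escort protein SCAP carries the membrane-bound SREBP transcription factors to the Golgi, where proteases release the part that enters the nucleus and switches on the genes of sterol and fatty acid synthesis. When sterols are plentiful, INSIG proteins hold the complex back, and oxysterols activate the LXR receptors, which switch on sterol export. In the brain cholesterol is made locally, and astrocytes are known to supply it to neurons.

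Promoters of 4 sterol genes are shown because these genes carried large changes or hold the letters searched for. The windows run from 250 bases before to 50 bases after the start of the gene in RefSeq (build GRCm38.p6, the assembly behind the deposited table's mm10). Capitals mark each match to CCAAT, the letters bound by NF-Y, on either strand (ATTGG when it lies on the other strand), and each match to TCACNCCAC, a core of the sterol regulatory element bound by SREBPs. The matches do not overlap each other. Hmgcs1 lies at chr13:119690101-119690400 on the plus strand, Mvk at chr5:114444019-114444318 on the plus strand, Nsdhl at chrX:72918271-72918570 on the plus strand and Cyp51 at chr5:4104648-4104947 on the minus strand, and each sequence reads 5′ to 3′ along its gene.
Hmgcs1: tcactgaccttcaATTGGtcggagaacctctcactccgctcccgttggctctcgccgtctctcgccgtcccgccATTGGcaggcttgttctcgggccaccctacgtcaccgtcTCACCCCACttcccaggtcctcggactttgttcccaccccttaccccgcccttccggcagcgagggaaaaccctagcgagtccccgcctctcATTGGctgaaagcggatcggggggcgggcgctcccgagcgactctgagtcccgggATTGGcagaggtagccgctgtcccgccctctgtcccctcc
Mvk: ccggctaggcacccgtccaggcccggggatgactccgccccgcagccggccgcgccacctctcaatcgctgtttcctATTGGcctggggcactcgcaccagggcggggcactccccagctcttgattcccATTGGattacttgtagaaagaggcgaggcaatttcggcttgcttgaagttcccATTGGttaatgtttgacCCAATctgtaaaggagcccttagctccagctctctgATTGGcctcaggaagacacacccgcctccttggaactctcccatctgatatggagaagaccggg
Nsdhl: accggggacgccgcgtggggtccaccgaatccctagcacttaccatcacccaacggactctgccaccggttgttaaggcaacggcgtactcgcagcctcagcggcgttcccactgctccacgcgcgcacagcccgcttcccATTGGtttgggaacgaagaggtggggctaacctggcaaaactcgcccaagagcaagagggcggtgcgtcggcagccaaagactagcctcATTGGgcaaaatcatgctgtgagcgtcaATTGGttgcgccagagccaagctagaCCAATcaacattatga
Cyp51: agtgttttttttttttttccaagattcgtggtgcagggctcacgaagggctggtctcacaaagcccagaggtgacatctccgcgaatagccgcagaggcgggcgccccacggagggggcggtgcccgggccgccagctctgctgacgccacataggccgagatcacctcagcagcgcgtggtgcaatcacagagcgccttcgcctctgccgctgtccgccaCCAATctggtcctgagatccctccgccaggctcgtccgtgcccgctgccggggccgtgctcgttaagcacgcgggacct

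The Hmgcs1 window held 1 match to the sterol regulatory element, which began at position -137 from the start, and 4 matches to CCAAT. Mvk held 5 matches to CCAAT, Nsdhl 4 and Cyp51 1. A window was found for 26 of the 33 genes and for 15 of the 18 sterol genes. CCAAT occurred in 14 of the 15 sterol genes (93.3%) and in 21 of the 26 genes (80.8%), against 41.1% of the 27025 genes that have windows of this length. The sterol regulatory element letters occurred in 1 of the 26 genes (3.85%) and in 1.44% of all genes. The E-box CACGTG, searched on both strands, occurred in 5 of the 26 genes (19.2%) and in 8.09% of all genes. A match to these letters is a description of the sequence and not evidence of binding. Only these exact letters within these windows were searched, so a window without a match is not shown to lack an element.

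Expression is given as the authors' FPKM, the fragments on a gene per kilobase of its length, scaled by a factor for each library. The deposited values are whole multiples of 1 read, which gave 16418852 to 18705309 reads per library. The factor did not follow these totals. On a length of 1 kilobase, 3 reads came to 0.191 FPKM in Ogt cKO replicate 1 (17272790 reads). They came to 0.17 FPKM in AD model replicate 1, which had fewer reads (16418852). Changes were tested with limma on log2(FPKM + 1) over the 14014 genes that reached 1 FPKM in 2 or more of the 12 libraries, with Benjamini-Hochberg adjustment over these genes, and a gene is said to have risen or fallen where its adjusted p was under 0.05. The spread of a gene was estimated over all 12 libraries, so its SE was the same in all 3 comparisons with a control. With 2 libraries a group, many genes separate without overlap. In the Ogt cKO both tested libraries lay above both controls for 41.6% of all genes tested and below both for 42.2%. These shares were 21.8% and 23.0% in the AD model, and 36.6% and 40.2% after Aβ. Of the 33 genes 32 were tested, and 31 reached 1 FPKM in every library. Acss2 reached it in 11 libraries. The exception was Fdps, farnesyl diphosphate synthase, which was listed at 0.0399 to 0.643 FPKM on 3 to 47 reads, and how reads that match several genes were counted is not given in the sources used here.

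Ogt had 11.04 and 12.03 FPKM in Ogt cKO libraries, against 20.8 and 24.7 FPKM in their control (log2 change -0.92 ± 0.30 SE, adjusted p = 0.0378), and the table gives 1 value for the whole gene, whichever exons were deleted. In the other experiments Ogt had 7.85 and 10.4 FPKM in Aβ control, 12.4 and 10.6 FPKM in Aβ-treated, 10.0 and 22.7 FPKM in AD control and 18.3 and 19.9 FPKM in AD model libraries. The Ogt cKO values lay within the range of these libraries. The cultures were not purely astrocytes by their markers: the astrocyte gene Gfap had 29.1 to 298 FPKM over the 12 libraries, the smooth muscle actin gene Acta2 171 to 3600 FPKM and the microglial gene C1qa 161 to 1147 FPKM, while the neuronal genes Snap25 and Rbfox3 stayed at or below 0.0375 and 0.0577 FPKM. The list of 8 neuronal markers that holds these 2 genes summed to 47.5 to 189 FPKM per library, and 3 of the 8 were tested. Of these 3, 1 was higher and 1 lower in the Ogt cKO, 0 changed in the AD model and 2 were lower after Aβ. In RNA of such cultures, fewer cells of a type and less RNA per cell cannot be told apart. AD model and AD control libraries were the least alike within their groups (correlation of log values over tested genes 0.944 and 0.948, against 0.985 to 0.991 in the other groups).

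In Ogt cKO astrocytes enzymes of the sterol pathway were higher than in their control, while the main fatty acid desaturase was much lower. Of 32 genes 12 changed (37.5%), against 42.3% of all genes tested, so the share of changed genes was no higher than the background. The direction differed between the classes and was split within the fatty acid genes. Of 17 sterol enzymes 9 rose and 0 fell (52.9% higher, against 22.6% of all genes higher and 19.8% lower), with a median log2 change of 0.43, against -0.0024 over all genes. Of 9 fatty acid genes 3 fell and 0 rose, but 4 had a positive and 5 a negative log2 change (median -0.0103). The 6 regulators gave 0 calls in either direction. At an unadjusted p under 0.05 limma counted 2 fatty acid genes as higher, and 1 regulator as higher and 2 as lower, and voom on the reads called 0 fatty acid genes higher and 2 regulators lower (Insig2 and Scap). A fit to the 4 libraries of the experiment alone called 23 of the 32 genes, among them 1 regulator higher (Stard4), 2 lower (Insig2 and Scap) and 4 fatty acid genes higher (Fasn, Acly, Scd1 and Elovl6), and the replicate block called the same 3 regulators.

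The sterol genes that rose spanned the pathway from its first step to the late steps on lanosterol. Nsdhl, a dehydrogenase that helps to remove methyl groups from the sterol ring (ENSMUSG00000031349, chrX:72918557-72958514), had 13.3 and 12.7 FPKM in Ogt cKO libraries, against 5.95 and 5.44 FPKM in their control. Cyp51, lanosterol demethylase (ENSMUSG00000001467, chr5:4081145-4104746), had 32.4 and 30.4 FPKM in Ogt cKO libraries, against 15.8 and 14.2 FPKM in their control. Fdft1, squalene synthase, which commits the pathway to sterols (ENSMUSG00000021273, chr14:63145150-63179578), had 21.5 and 20.1 FPKM in Ogt cKO libraries, against 10.96 and 10.1 FPKM in their control. In all 3 genes both knockout libraries lay about as far above the controls, and the groups did not overlap. The log2 changes were 1.07 ± 0.23 (SE) for Nsdhl (adjusted p = 0.00814), 1.02 ± 0.23 for Cyp51 (adjusted p = 0.00895) and 0.92 ± 0.21 for Fdft1 (adjusted p = 0.00934).

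Other steps of the pathway rose by less. Acat2, which joins acetyl-CoA units at the entry of the pathway, had 23.0 and 19.3 FPKM in Ogt cKO libraries, against 13.1 and 12.7 FPKM in their control. Mvk, mevalonate kinase, had 15.4 and 16.0 FPKM in Ogt cKO libraries, against 9.22 and 9.66 FPKM in their control. Hsd17b7, a late sterol reductase, had 11.8 and 11.2 FPKM in Ogt cKO libraries, against 7.29 and 6.19 FPKM in their control. None of these groups overlapped. The log2 change was 0.68 ± 0.12 for Mvk (adjusted p = 0.00421), 0.69 ± 0.19 for Hsd17b7 (adjusted p = 0.02) and 0.67 ± 0.24 for Acat2 (adjusted p = 0.0482). Pmvk and Mvd, the kinase and decarboxylase after Mvk, and Lss, lanosterol synthase, rose by 0.55, 0.42 and 0.43 on the log2 scale. The sterol genes that were not called ranged in log2 change from -0.37 for Tm7sf2, a sterol reductase, to 0.59 for Idi1, the isomerase of isoprenoid units, and included Hmgcs1, HMG-CoA synthase, at -0.29 ± 0.31 (adjusted p = 0.47). Both knockout libraries lay above both controls for 11 of the 17 genes, against 41.6% of all genes tested.

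Fatty acid genes moved apart from each other. Scd2, the stearoyl-CoA desaturase that predominates in brain (ENSMUSG00000025203, chr19:44293676-44306864), had 109 and 101.2 FPKM in Ogt cKO libraries, against 319 and 406 FPKM in their control. Its paralogue Scd1 had 48.5 and 41.2 FPKM in Ogt cKO libraries, against 21.1 and 25.5 FPKM in their control. Acss2, which makes acetyl-CoA from acetate, had 1.495 and 1.16 FPKM in Ogt cKO libraries, against 4.26 and 5.05 FPKM in their control. The groups did not overlap in any of the 3, with Scd2 and Acss2 low and Scd1 high in the knockout. Over all genes tested, 41.6% lay above and 42.2% below the controls in this way. Scd2 fell by 1.77 ± 0.22 on the log2 scale (adjusted p = 0.00132) and Acss2 fell by 1.28 ± 0.27 (adjusted p = 0.00782), whereas Scd1 had a log2 change of 0.92 ± 0.50 that did not pass the test (adjusted p = 0.164). The shared SE of Scd1 also takes in the AD control libraries, at 57.5 and 15.7 FPKM. Fads1, a desaturase of polyunsaturated fatty acids, fell by 0.55 ± 0.13 (adjusted p = 0.011). Fasn, fatty acid synthase, averaged 36.3 ± 1.39 FPKM in Ogt cKO libraries and 25.9 ± 1.73 FPKM in their control (SD, n = 2 each; log2 change 0.47, adjusted p = 0.052).

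Of the regulators, Srebf2, the SREBP gene tied most closely to sterol synthesis, had 33.3 and 33.2 FPKM in Ogt cKO libraries, against 30.2 and 30.2 FPKM in their control. Srebf1, tied more to fatty acid synthesis, had 26.3 and 23.8 FPKM in Ogt cKO libraries, against 25.5 and 28.8 FPKM in their control. Insig1 had 21.0 and 18.6 FPKM in Ogt cKO libraries, against 20.7 and 22.3 FPKM in their control. Srebf1 and Insig1 overlapped between the groups. Srebf2 lay slightly higher in both knockout libraries without overlap, but did not pass the test (log2 change 0.14, adjusted p = 0.296), and its sign turned with quantile normalization (-0.08), read totals (-0.10) and voom (-0.11). Insig2 had 12.8 and 10.6 FPKM in Ogt cKO libraries, against 20.6 and 20.52 FPKM in their control, and Scap had 17.3 and 16.2 FPKM in Ogt cKO libraries, against 23.4 and 24.5 FPKM in their control. Both lay lower in the knockout without overlap, as did 42.2% of all genes tested. Their log2 changes of -0.77 ± 0.32 and -0.49 ± 0.20 did not pass the test (adjusted p = 0.0798 and 0.0722). Stard4, a carrier of sterols between membranes, averaged 3.62 ± 0.60 FPKM in Ogt cKO libraries and 2.13 ± 0.0851 FPKM in their control (SD, n = 2 each; log2 change 0.55, adjusted p = 0.083).

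The count in the Ogt cKO depended on the scaling and on single libraries. With reads scaled to the library total, which moved the median change of all genes to -0.19 and the share of higher genes among all calls to 35.5% (53.3% with the deposited values), 4 of the 32 genes came out higher and 6 lower, and voom on the reads gave 4 higher and 7 lower. The 4 were Mvk, Fdft1, Cyp51 and Nsdhl in both, and the sterol median of 0.25 under read totals lay about as far above that of all genes as before. Of sterol genes that were lower, limma counted 0 at an unadjusted p under 0.05 and voom called 1 (Dhcr7). Without Ogt cKO replicate 1, Ogt cKO replicate 2, control replicate 1 or control replicate 2, the genes called higher numbered 1, 4, 5 and 1 in that order, and the genes called lower 3, 1, 3 and 1. Mvk and Scd2 passed the test whichever of the 4 libraries was left out. Cyp51, Nsdhl and Fdft1 missed it without Ogt cKO replicate 1 or control replicate 2, with adjusted p up to 0.0649, 0.0588 and 0.066 and log2 changes of at least 0.95, 1.01 and 0.87, and Acss2 and Fads1 missed it without Ogt cKO replicate 2 or control replicate 2, with adjusted p up to 0.0596 and 0.0899. Acat2, Hsd17b7, Pmvk and Lss missed it without any 1 of the 4 libraries and Mvd without 3 of them. Without any 1 of the 4 AD libraries 11 genes were called higher and 5 lower.

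Markers of other cells moved in the same comparison. Of 7 tested pericyte and smooth muscle markers 4 were higher, with a summed 4007 to 4055 FPKM in Ogt cKO libraries, against 502 to 1004 FPKM in their control, and of 8 proliferation markers 6 were higher (165 to 169 FPKM in Ogt cKO libraries, against 55.6 to 70.5 FPKM in their control). Of 8 endothelial markers 7 were higher (262 to 271 FPKM in Ogt cKO libraries, against 43.9 to 54.3 FPKM in their control). Of 13 tested astrocyte markers 10 were lower (129 to 146 FPKM in Ogt cKO libraries, against 639 to 744 FPKM in their control), of 12 oligodendrocyte markers 1 was higher and 6 were lower (29.1 to 31.5 FPKM in Ogt cKO libraries, against 117 to 248.6 FPKM in their control) and of 12 microglia and macrophage markers 5 were lower (2994 to 3987 FPKM in Ogt cKO libraries, against 7010 to 9002 FPKM in their control). Of 6 tested fibroblast and meninges markers 0 were called, with 1159 to 1184 FPKM in Ogt cKO libraries, against 735 to 859 FPKM in their control, and of 5 oligodendrocyte precursor markers 1 was higher and 3 were lower (44.8 FPKM in both Ogt cKO libraries, against 101.5 to 182 FPKM in their control). Of the defining markers Snap25 was listed at 0 in all 4 libraries. The part of these cells in the sterol and desaturase values was not tested.

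**Figure D1:**
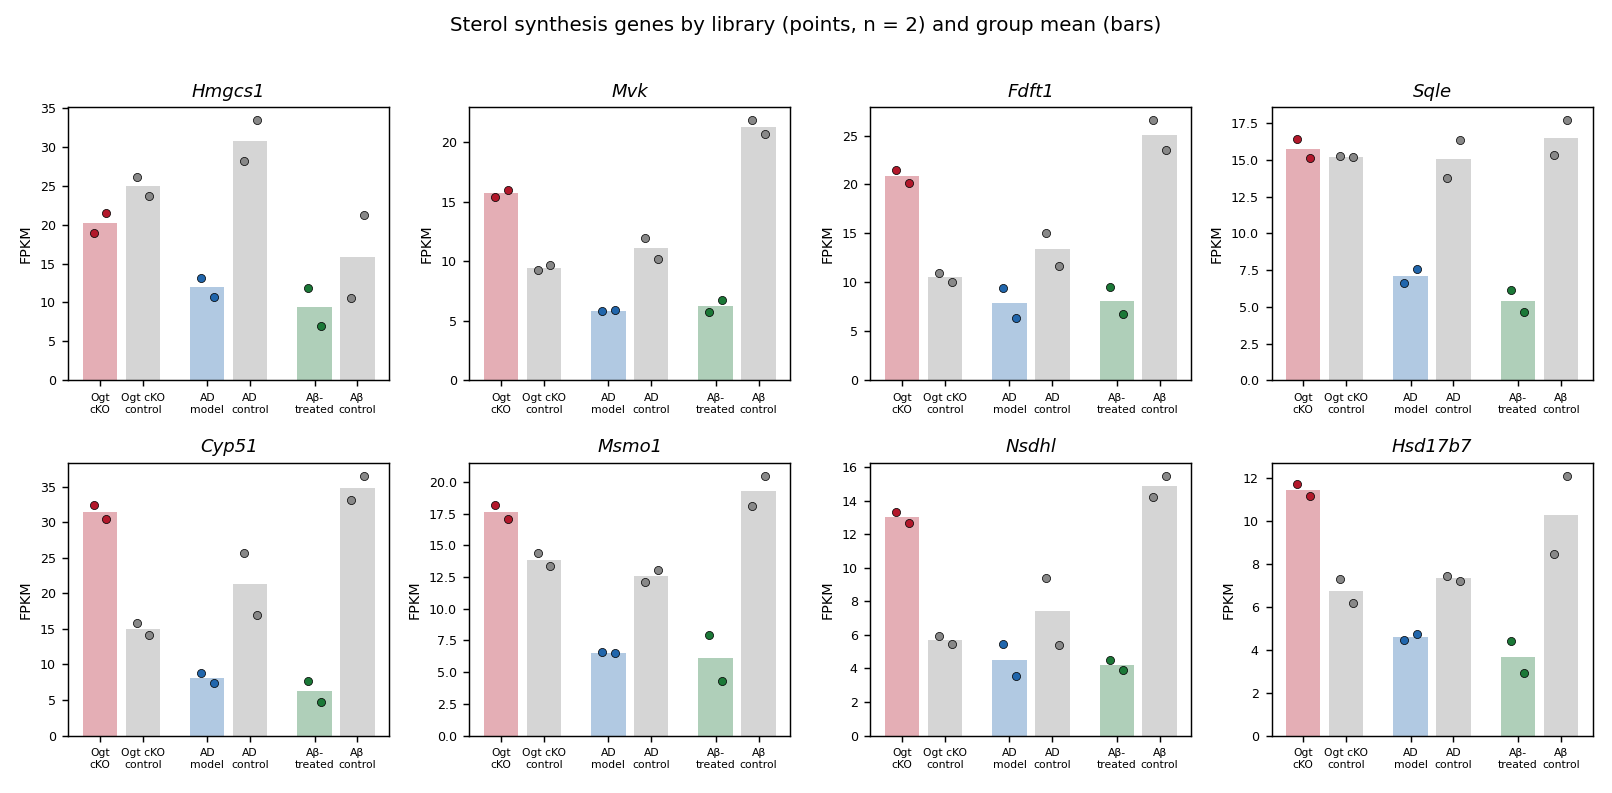
FPKM of 8 sterol synthesis genes in each library (points) with the mean of the 2 libraries of a group (bars), for Ogt cKO, AD model and Aβ-treated astrocytes, each left of its control. Cyp51 shows the pattern of most panels, with 31.4 FPKM on average in Ogt cKO and 34.8 FPKM in Aβ control libraries, and 4.79 to 8.83 FPKM in the AD model and Aβ-treated libraries.

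In AD model astrocytes sterol enzymes were lower than in wild-type astrocytes, from HMG-CoA synthase at the start to the late sterol oxidases. Of 32 genes 12 fell (37.5%), against 7.27% of all genes tested, and 0 rose, against 9.8% of all genes. They were 9 of 17 sterol enzymes, Srebf2 among 6 regulators, and Scd2 and Fads1 among 9 fatty acid genes. The median log2 change was -0.63 for the sterol enzymes, -0.38 for the regulators and -0.42 for the fatty acid genes, against -0.0242 over all genes.

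Hmgcs1, which makes HMG-CoA (ENSMUSG00000093930, chr13:119690379-119708260), had 13.2 and 10.7 FPKM in AD model libraries, against 28.1 and 33.4 FPKM in AD control libraries. Sqle, squalene epoxidase, a rate-limiting step of the later pathway, had 6.63 and 7.54 FPKM in AD model libraries, against 13.8 and 16.3 FPKM in AD control libraries. Cyp51 had 8.83 and 7.34 FPKM in AD model libraries, against 25.6 and 17.0 FPKM in AD control libraries. In all 3 genes both model libraries lay far below both controls, and the groups did not overlap. The log2 changes were -1.30 ± 0.31 for Hmgcs1 (adjusted p = 0.0205), -1.27 ± 0.23 for Cyp51 (adjusted p = 0.00544) and -0.99 ± 0.15 for Sqle (adjusted p = 0.00248).

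The kinases between mevalonate and isoprenoids and the enzymes around lanosterol were lower too. Mvk had 5.82 and 5.87 FPKM in AD model libraries, against 11.97 and 10.2 FPKM in AD control libraries. Pmvk, phosphomevalonate kinase, had 7.03 and 7.12 FPKM in AD model libraries, against 17.3 and 12.03 FPKM in AD control libraries. Msmo1, a methylsterol oxidase, had 6.56 and 6.49 FPKM in AD model libraries, against 12.1 and 13.0 FPKM in AD control libraries. In these genes the model libraries lay close together and below both controls. Their log2 changes were -0.82 ± 0.12 (adjusted p = 0.0022), -0.94 ± 0.17 (adjusted p = 0.00539) and -0.85 ± 0.21 (adjusted p = 0.0222). Fdft1 had 9.38 and 6.36 FPKM in AD model libraries, against 15.1 and 11.7 FPKM in AD control libraries (log2 change -0.71 ± 0.21, adjusted p = 0.047). Sc5d, a late sterol desaturase, fell by 0.63 and Lss fell by 0.49 on the log2 scale (adjusted p = 0.0368 and 0.0311). Of the sterol genes that were not called, Ebp, a sterol isomerase, was the only one with a positive log2 change (0.26, adjusted p = 0.284), and Acat2 averaged 10.9 ± 4.19 FPKM in AD model libraries and 10.8 ± 2.87 FPKM in AD control libraries (SD, n = 2 each). Both model libraries lay below both controls for 13 of the 17 genes, against 23.0% of all genes tested.

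Srebf2 had 17.4 and 16.9 FPKM in AD model libraries, against 28.2 and 25.6 FPKM in AD control libraries, a log2 change of -0.62 ± 0.10 (adjusted p = 0.00379). Both model libraries were well below both controls. Srebf1 had 18.1 and 14.0 FPKM in AD model libraries, against 26.6 and 17.7 FPKM in AD control libraries. Insig1 had 11.98 and 10.3 FPKM in AD model libraries, against 15.3 and 14.4 FPKM in AD control libraries. Srebf1 overlapped between the groups and Insig1 did not, and neither passed the test (adjusted p = 0.182 and 0.145). Insig2 had 11.2 and 17.0 FPKM in AD model libraries, against 9.43 and 20.3 FPKM in AD control libraries. Scap had 12.3 and 18.8 FPKM in AD model libraries, against 17.3 and 23.4 FPKM in AD control libraries. For both genes the 2 libraries of each group differed more than the group means did.

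Scd2 had 113 and 156 FPKM in AD model libraries, against 229 and 217 FPKM in AD control libraries (log2 change -0.74 ± 0.22, adjusted p = 0.0491). Fads1 had 34.3 and 34.0 FPKM in AD model libraries, against 59.6 and 53.1 FPKM in AD control libraries (log2 change -0.70 ± 0.13, adjusted p = 0.0063). Scd1 had 14.8 and 13.7 FPKM in AD model libraries, against 57.5 and 15.7 FPKM in AD control libraries (log2 change -1.04 ± 0.50, adjusted p = 0.21). The 2 Scd1 controls lay far apart, the second of them close to the model libraries, while Scd2 and Fads1 were low in both model libraries. The log2 changes of Fasn, Acaca (acetyl-CoA carboxylase) and Acly (ATP citrate lyase), which carry citrate carbon to palmitate, were -0.18, -0.09 and 0.08 (adjusted p = 0.539 to 0.785).

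The AD calls leaned on the estimate of spread shared by all 12 libraries. In a fit to the 4 AD libraries alone limma called 0 of the 32 genes at an adjusted p under 0.05 (lowest adjusted p = 0.0736) and 278 genes in all, and 12 of the 32 had an unadjusted p under 0.05, all lower. Leaving out AD control replicate 1 gave 7 genes. Mvk, Pmvk, Sqle, Cyp51, Srebf2 and Fads1 passed the test whichever of the 4 libraries was left out. Hmgcs1 missed it without AD control replicate 2 or AD model replicate 2 (adjusted p up to 0.0824), Fdft1 and Lss without AD control replicate 1 or AD model replicate 2 (adjusted p up to 0.185 and 0.099), Scd2 without either control or AD model replicate 1 (adjusted p up to 0.202), and Msmo1 and Sc5d without any 1 of the 4 (adjusted p up to 0.0782 and 0.117). With no filter on low values 6 genes were called. At an unadjusted p under 0.05, 0 of the 32 genes were higher and 19 lower, with voom as with limma. For this count and that of the 4 AD libraries alone, the share of all genes at the unadjusted threshold was not counted.

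Markers moved here as well. Of 7 tested pericyte and smooth muscle markers 5 were lower (208 to 755 FPKM in AD model libraries, against 1705 to 3801 FPKM in AD control libraries), of 6 tested fibroblast and meninges markers 4 were lower (338 to 744 FPKM in AD model libraries, against 928 to 1871 FPKM in AD control libraries), and of 13 tested astrocyte markers 5 were lower (262 to 288 FPKM in AD model libraries, against 608 to 810 FPKM in AD control libraries). Of 5 oligodendrocyte precursor markers 4 were lower (63.4 to 65.1 FPKM in AD model libraries, against 142 to 234 FPKM in AD control libraries). Of 12 oligodendrocyte markers 10 were higher (405 to 482 FPKM in AD model libraries, against 76.6 to 138 FPKM in AD control libraries), of 12 microglia and macrophage markers 8 were higher (3230 to 5409 FPKM in AD model libraries, against 1034 to 1582 FPKM in AD control libraries), and of 8 proliferation markers 6 were higher (143 to 178 FPKM in AD model libraries, against 61.6 to 68.5 FPKM in AD control libraries). Of 8 endothelial markers 0 were called (112 to 401 FPKM in AD model libraries, against 88.2 to 196 FPKM in AD control libraries). The part of these cells in the lower sterol values was not tested.

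After exposure to Aβ nearly the whole sterol pathway was lower than in untreated astrocytes, together with Srebf2, Insig1 and most fatty acid genes. Of 32 genes 23 fell (71.9%), against 15.1% of all genes tested that fell and 35.9% that changed in either direction, and 0 rose. They were 15 of 17 sterol enzymes (88.2%), 2 of 6 regulators and 6 of 9 fatty acid genes. The median log2 change was -1.16 for the sterol enzymes, -0.45 for the regulators and -0.61 for the fatty acid genes, against -0.0367 over all genes.

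Cyp51 had 7.64 and 4.79 FPKM in Aβ-treated libraries, against 33.05 and 36.5 FPKM in Aβ control libraries. Mvk had 5.72 and 6.76 FPKM in Aβ-treated libraries, against 21.8 and 20.7 FPKM in Aβ control libraries. Nsdhl had 4.53 and 3.92 FPKM in Aβ-treated libraries, against 14.2 and 15.5 FPKM in Aβ control libraries. The gap between the groups was several times the distance between libraries of a group. By mean FPKM Cyp51 was 5.60-fold, Mvk 3.40-fold and Nsdhl 3.51-fold lower in Aβ-treated cells, and the log2 changes were -2.34 ± 0.23 (adjusted p = 0.000142), -1.62 ± 0.12 (adjusted p = 3.7e-05) and -1.60 ± 0.23 (adjusted p = 0.00108).

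The squalene steps and the methylsterol oxidase Msmo1 fell alongside. Fdft1 had 9.51 and 6.73 FPKM in Aβ-treated libraries, against 26.5 and 23.5 FPKM in Aβ control libraries. Sqle had 6.12 and 4.67 FPKM in Aβ-treated libraries, against 15.3 and 17.7 FPKM in Aβ control libraries. Msmo1 had 7.91 and 4.34 FPKM in Aβ-treated libraries, against 18.1 and 20.47 FPKM in Aβ control libraries. None of the groups overlapped, and the second treated library was the lower one in all 3. The log2 changes were -1.53 ± 0.21 for Fdft1 (adjusted p = 0.000788), -1.46 ± 0.15 for Sqle (adjusted p = 0.000185) and -1.56 ± 0.21 for Msmo1 (adjusted p = 0.00071). Acat2 fell by 1.27, Pmvk fell by 1.16, Mvd fell by 1.09, Lss fell by 1.00 and Hsd17b7 fell by 1.27 on the log2 scale. Idi1, Tm7sf2, Sc5d and Dhcr7, the reductase that makes cholesterol from dehydrocholesterol, changed by -0.89, -0.81, -0.63 and -0.57. The 2 sterol genes not called were Ebp (log2 change -0.33, adjusted p = 0.114) and Hmgcs1, which had 11.8 and 7.03 FPKM in Aβ-treated libraries, against 10.52 and 21.3 FPKM in Aβ control libraries. The Hmgcs1 controls lay apart by a factor near 2.0 and overlapped the treated libraries (log2 change -0.66 ± 0.31, adjusted p = 0.125). Both treated libraries lay below both controls for 16 of the 17 genes, against 40.2% of all genes tested, and above both for 0 genes, against 36.6%.

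Fdps, which links the isoprenoid and squalene steps, was too low to test and was listed at 0.0842 and 0.0399 FPKM in Aβ-treated libraries, against 0.632 and 0.643 FPKM in Aβ control libraries. In Ogt cKO libraries it was listed at 0.529 and 0.489 FPKM, against 0.202 and 0.207 FPKM in their control, and in AD model libraries at 0.121 and 0.0522 FPKM, against 0.158 and 0.206 FPKM in AD control libraries. The groups did not overlap in any of the 3 experiments, on few reads.

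Of the regulators, Srebf2 had 18.2 and 17.4 FPKM in Aβ-treated libraries, against 34.1 and 33.3 FPKM in Aβ control libraries. Insig1 had 10.4 and 7.64 FPKM in Aβ-treated libraries, against 21.6 and 25.8 FPKM in Aβ control libraries. Both were far below their controls, with log2 changes of -0.88 ± 0.10 for Srebf2 (adjusted p = 0.000348) and -1.31 ± 0.16 for Insig1 (adjusted p = 0.00049). Srebf1 had 18.5 and 19.7 FPKM in Aβ-treated libraries, against 29.5 and 26.8 FPKM in Aβ control libraries, without overlap, but did not pass the test (log2 change -0.53 ± 0.19, adjusted p = 0.0593). Insig2 had 13.8 and 10.99 FPKM in Aβ-treated libraries, against 9.20 and 12.2 FPKM in Aβ control libraries, and Scap had 14.2 and 13.6 FPKM in Aβ-treated libraries, against 19.0 and 17.2 FPKM in Aβ control libraries. Insig2 overlapped between the groups and Scap did not, and neither passed the test (adjusted p = 0.652 and 0.18). Stard4 averaged 3.16 ± 0.0386 FPKM in Aβ-treated libraries and 3.01 ± 0.947 FPKM in Aβ control libraries (SD, n = 2 each).

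Of the fatty acid genes, Scd1 had 18.3 and 9.35 FPKM in Aβ-treated libraries, against 38.2 and 49.6 FPKM in Aβ control libraries (log2 change -1.65 ± 0.50, adjusted p = 0.0311). Scd2 had 102 and 70.1 FPKM in Aβ-treated libraries, against 104 and 115 FPKM in Aβ control libraries (log2 change -0.37 ± 0.22, adjusted p = 0.214). The Scd1 groups stood well apart, and the first Scd2 library of the treated cells lay just under the controls. Fasn averaged 21.6 ± 2.84 FPKM in Aβ-treated libraries and 44.1 ± 0.623 FPKM in Aβ control libraries (SD, n = 2 each), a log2 change of -1.01 ± 0.17 (adjusted p = 0.00242). Acly, Acaca, Fads1 and Fads2, the desaturase that begins polyunsaturated fatty acid synthesis, fell by 0.61, 0.57, 0.85 and 0.68 on the log2 scale. Acss2 and Elovl6, an elongase of palmitate, had log2 changes of -0.36 and 0.03 that were not called.

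The Aβ count moved little with the settings: 22 of the 32 genes were lower in a fit to the 4 libraries of the experiment alone, 22 with voom on the reads and 21 with reads scaled to the library total. At an unadjusted p under 0.05, 0 genes were higher and 24 lower with limma and with voom, and the share of all genes at this threshold was not counted. Of the 23 genes called, 15 passed the test whichever of the 4 libraries was left out, among them Cyp51, Mvk, Nsdhl, Fdft1, Sqle, Msmo1, Srebf2 and Insig1. Scd1 missed it without Aβ control replicate 1, Aβ control replicate 2 or Aβ-treated replicate 2, with adjusted p up to 0.178. Idi1 and Sc5d missed it without Aβ control replicate 2 or Aβ-treated replicate 2, with log2 changes as small as -0.43 and -0.40. Tm7sf2 and Acaca missed it without any 1 of the 4 libraries (adjusted p up to 0.111 and 0.0668), and Dhcr7, Acly and Fads2 without 2 or 3 of them (adjusted p up to 0.0901, 0.0868 and 0.0789).

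Pericyte and smooth muscle markers were lower here too, 6 of 7 tested (419 to 485 FPKM in Aβ-treated libraries, against 3580 to 4080 FPKM in Aβ control libraries), and of 6 tested fibroblast and meninges markers 1 was higher and 3 were lower (278 to 472 FPKM in Aβ-treated libraries, against 767 to 985 FPKM in Aβ control libraries). Of 13 tested astrocyte markers 2 were higher and 2 lower (94.3 to 192 FPKM in Aβ-treated libraries, against 150 to 162 FPKM in Aβ control libraries). Of 12 oligodendrocyte markers 11 were higher (160 to 333 FPKM in Aβ-treated libraries, against 28.0 to 31.9 FPKM in Aβ control libraries), and of 8 endothelial markers 6 were higher (672 to 955 FPKM in Aβ-treated libraries, against 261 to 319 FPKM in Aβ control libraries). Of 12 microglia and macrophage markers 4 were higher and 2 lower (4485 to 5912 FPKM in Aβ-treated libraries, against 2221 to 3701 FPKM in Aβ control libraries). Of 8 proliferation markers 2 were higher and 0 lower. They summed to 144 to 160 FPKM in Aβ-treated and 157 to 162 FPKM in Aβ control libraries. Of 5 oligodendrocyte precursor markers 1 was higher and 1 lower. They summed to 53.4 to 53.6 FPKM in Aβ-treated and 39.3 to 53.7 FPKM in Aβ control libraries. In all 3 experiments the summed levels of the pericyte and smooth muscle list and of the fibroblast and meninges list lay on the same side of the control as the sterol genes, and those of the oligodendrocyte list and of the microglia and macrophage list on the other side. Their part in the sterol values was not tested.

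**Figure D2:**
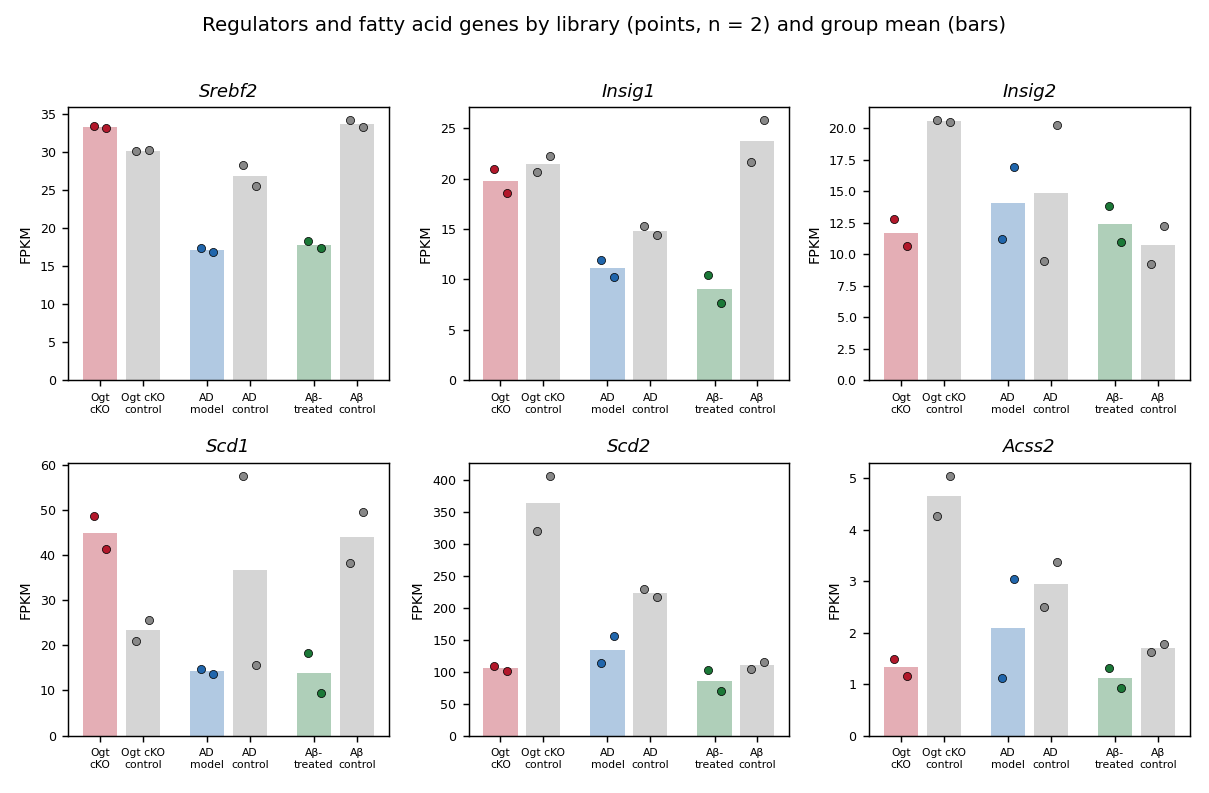
FPKM of the regulators Srebf2, Insig1 and Insig2 and of the fatty acid genes Scd1, Scd2 and Acss2 in each library (points) with group means (bars), tested groups left of their controls. Scd2 is highest in Ogt cKO control libraries (319 and 406 FPKM), while Srebf2 lies between 16.9 and 18.2 FPKM in AD model and Aβ-treated libraries and at 25.6 FPKM or more elsewhere.

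The changes in the 3 experiments were compared with each other within the same fit, in which the experiments share no library. Between the Ogt cKO and the AD experiment 13 of 32 genes differed in their change (40.6%), against 25.6% of all genes tested, 12 of them with the higher value in the Ogt cKO. These were 11 of 17 sterol enzymes and Srebf2, with a sterol median difference of 1.03 on the log2 scale. Cyp51 differed by 2.29 ± 0.32 (adjusted p = 0.00212), Nsdhl by 1.66 ± 0.33 (adjusted p = 0.00876), Fdft1 by 1.63 ± 0.29 (adjusted p = 0.00607) and Mvk by 1.49 ± 0.17 (adjusted p = 0.000772). Scd2 was the gene with the lower value in the Ogt cKO (-1.02 ± 0.31, adjusted p = 0.042). Without Ogt cKO control replicate 2 the count was 8. Between the Ogt cKO and the Aβ experiment 19 genes differed (59.4%), against 52.3% of all genes tested, 18 with the higher value in the Ogt cKO (56.2%, against 25.7% of all genes). Cyp51 differed by 3.36 ± 0.32 (adjusted p = 0.000156), Nsdhl by 2.67 ± 0.33 (adjusted p = 0.000442), Scd1 by 2.57 ± 0.71 (adjusted p = 0.015) and Fdft1 by 2.45 ± 0.29 (adjusted p = 0.0004), and Scd2 was again the gene with the lower value (-1.39 ± 0.31, adjusted p = 0.00591).

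Between the AD and the Aβ experiment 2 genes differed (6.25%), against 6.14% of all genes tested (1.52% higher and 4.62% lower in the AD experiment). They were Mvk, which fell less in the AD model (difference 0.81 ± 0.17, adjusted p = 0.0298), and Insig1 (difference 0.92 ± 0.23, adjusted p = 0.05 after rounding, just under the threshold). At an unadjusted p under 0.05, 14 genes differed, all with the higher value in the AD experiment. The share of all genes at this threshold was not counted, so the 14 have no background beside them. The count of 2 became 6 without AD control replicate 1, 3 without AD model replicate 1, and 0 or 1 without any 1 of the other 10 libraries.

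The levels themselves differed between the control groups. Over the 6 groups, the mean FPKM was highest in Aβ control libraries for 11 of 17 sterol enzymes and lowest in Aβ-treated libraries for 12 and in AD model libraries for 4. Aβ control libraries both lay above both Ogt cKO control libraries for 11 of the 17 and above both AD control libraries for 12. Ogt cKO libraries did not lie above Aβ control libraries for any sterol enzyme: they were below them for 9 and overlapped them for 8. AD model and Aβ-treated libraries overlapped for 14 of 17. The share of all genes tested that separates between groups of different experiments was not counted, so these counts have no background beside them. For Cyp51 the order of the means was Aβ control (34.8 ± 2.45 FPKM), Ogt cKO (31.4 ± 1.42), AD control (21.3 ± 6.11), Ogt cKO control (15.0 ± 1.10), AD model (8.09 ± 1.05) and Aβ-treated (6.21 ± 2.01; SD, n = 2 each). In that order the AD model and Aβ-treated values overlapped, and the other neighbours did not. The mean log2(FPKM + 1) over the 17 sterol enzymes was 3.79 and 3.70 in Ogt cKO libraries, against 3.39 and 3.33 in their control, 2.75 and 2.79 in AD model libraries, against 3.48 and 3.34 in AD control libraries, and 2.82 and 2.54 in Aβ-treated libraries, against 3.74 and 3.94 in Aβ control libraries. The controls also differed in cell markers. Acta2 averaged 3346 FPKM in Aβ control, 2305 FPKM in AD control and 645 FPKM in Ogt cKO control libraries, and Gfap averaged 61.2, 260 and 282 FPKM in that order. The groups come from mice of different ages in separate experiments, so level differences between controls cannot be told apart from age, batch or cell make-up. The part of cell make-up was not tested.

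**Figure D3:**
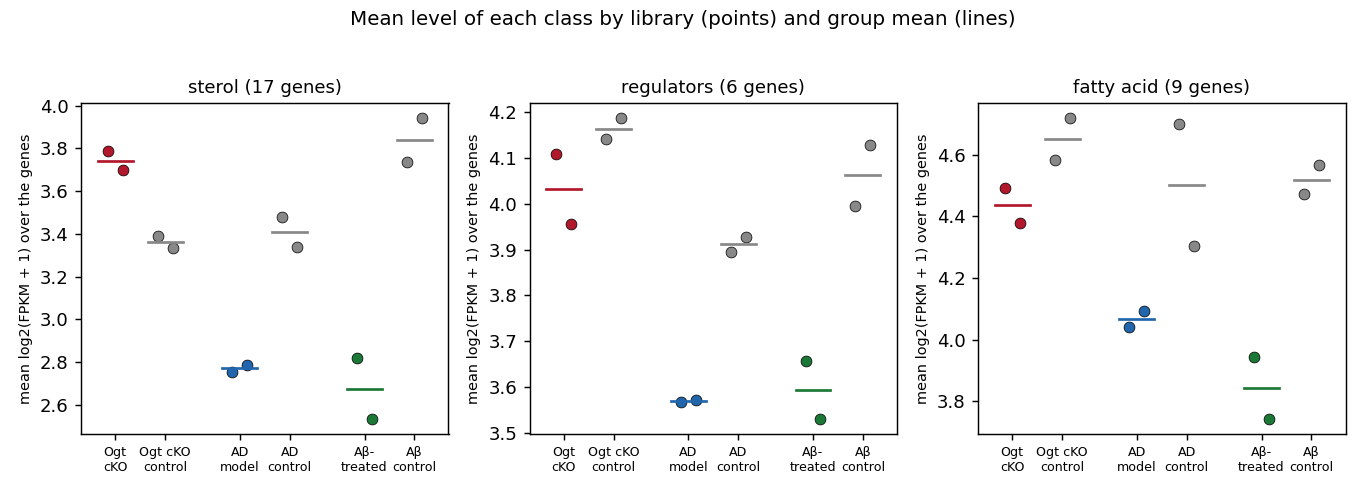
Mean log2(FPKM + 1) over the 17 tested sterol, 6 regulator and 9 fatty acid genes in each library (points) with group means (lines), tested groups left of their controls; the vertical axes do not start at 0. The sterol mean is higher in Ogt cKO libraries (3.79 and 3.70) than in their control (3.39 and 3.33) and lower in AD model (2.75 and 2.79) and Aβ-treated libraries (2.82 and 2.54) than in theirs.

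Several members share genomic space with other expressed genes, and whether counting used strand is not given in the sources used here. Fdft1 overlaps the cathepsin gene Ctsb, on the other strand, by 774 bases. Ctsb averaged 387 ± 47.1 FPKM in Ogt cKO libraries and 1246 ± 79.2 FPKM in their control, 1035 ± 502 FPKM in AD model and 360 ± 106 FPKM in AD control libraries, and 1034 ± 250 FPKM in Aβ-treated and 430 ± 41.7 FPKM in Aβ control libraries (SD, n = 2 each), which is the opposite direction to Fdft1 each time. Acss2 overlaps Gss, on the other strand, over 22544 bases, and Ggt7, also on the other strand, over 290 bases. Gss averaged 13.9 ± 0.614 FPKM in Ogt cKO libraries and 8.72 ± 0.424 FPKM in their control, opposite to Acss2 (log2 change 0.62, adjusted p = 0.0556). In the other experiments Gss had log2 changes of the same sign as Acss2 (-0.31, adjusted p = 0.434, in the AD model and -0.94, adjusted p = 0.013, after Aβ). Ggt7 had log2 changes of -0.14 in the Ogt cKO, -0.94 in the AD model and -0.98 after Aβ (adjusted p = 0.528, 0.00615 and 0.00258), the same sign as Acss2 each time. Cyp51 overlaps Akap9 by 166 bases and Srebf1 overlaps Rai1 by 109 bases, genes with means of at most 2.51 and 9.56 FPKM in any group. Acat3, a near-identical copy of Acat2, had 0.109 to 2.22 FPKM over the 12 libraries.

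Genes next to the pathway were counted from lists of enzymes of lipid synthesis that are not among the 33, of SREBP processing and of LXR and oxysterol genes. Of 22 tested neighbours, in elongation, acyl activation and glycerolipid synthesis, the Ogt cKO had 2 higher and 6 lower, the AD model 4 higher and 2 lower, and the Aβ-treated cells 4 higher and 4 lower. The shares called were 36.4%, 27.3% and 36.4% of the 22, against 42.3%, 17.1% and 35.9% of all genes tested, so those of the Ogt cKO and after Aβ were below or near the background. In the Ogt cKO, Gpam, which starts glycerolipid synthesis, had 5.89 and 5.56 FPKM, against 14.0 and 15.8 FPKM in the control (log2 change -1.24 ± 0.14, adjusted p = 0.00107). Elovl5 and Hacd3, of fatty acid elongation, fell by 0.97 and 0.89 in the Ogt cKO. Acsl4, an acyl-CoA synthetase with a preference for arachidonate, rose in the AD model (24.1 and 17.8 FPKM, against 7.92 and 6.76 FPKM in AD control libraries; log2 change 1.39 ± 0.15, adjusted p = 0.000478) and after Aβ (19.4 and 19.0 FPKM, against 4.45 and 4.15 FPKM in Aβ control libraries; log2 change 1.93 ± 0.15, adjusted p = 4.84e-05). Acsl5 rose by 1.16 and Gpam fell by 0.74 in the AD model, and Elovl7 rose by 1.07 and Erg28, known in yeast as a scaffold of sterol demethylation, fell by 0.72 after Aβ.

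Of 11 tested genes of SREBP processing, the Ogt cKO had 2 higher and 2 lower, the AD model 0 changed by limma (0 higher and 1 lower at an unadjusted p under 0.05), and the Aβ-treated cells 3 higher and 1 lower. In the Ogt cKO and after Aβ 36.4% of the 11 were called, which is near the background of 42.3% and 35.9%. Mbtps1, the protease that makes the first cut in SREBPs, had 18.9 and 17.9 FPKM in Ogt cKO libraries, against 30.5 and 33.9 FPKM in their control (log2 change -0.77 ± 0.17, adjusted p = 0.00955). Mbtps2, the protease of the second cut, had 2.27 and 2.08 FPKM in Aβ-treated libraries, against 0.884 and 1.07 FPKM in Aβ control libraries (log2 change 0.68 ± 0.12, adjusted p = 0.00313). Tmem41b, a lipid scramblase of the endoplasmic reticulum, rose by 0.50 in the Ogt cKO and fell by 0.66 after Aβ, in both cases in the direction of the sterol enzymes. Ufd1, of the machinery that extracts proteins for degradation, rose by 0.43 in the Ogt cKO, and Ubxn4, of the same machinery, rose by 0.86 after Aβ.

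Of 12 tested LXR and oxysterol genes, the Ogt cKO had 2 higher and 6 lower, the AD model 4 higher and 1 lower, and the Aβ-treated cells 5 higher and 0 lower (also 0 lower by limma at an unadjusted p under 0.05). Over all genes tested, the Ogt cKO had 22.6% higher and 19.8% lower, the AD model 9.8% and 7.27%, and the Aβ-treated cells 20.8% and 15.1%. Abca1, which exports cholesterol to lipid-poor particles, had 4.74 and 5.73 FPKM in Ogt cKO libraries, against 29.7 and 38.8 FPKM in their control. It had 28.5 and 24.3 FPKM in Aβ-treated libraries, against 3.65 and 4.97 FPKM in Aβ control libraries. Abcg1, a second sterol exporter, had 22.2 and 27.6 FPKM in AD model libraries, against 4.17 and 2.38 FPKM in AD control libraries. In each of these pairs of groups the exporter lay on the other side of the control from the sterol enzymes, without overlap. The log2 change of Abca1 was -2.49 ± 0.28 in the Ogt cKO (adjusted p = 0.00105) and 2.37 ± 0.28 after Aβ (adjusted p = 0.000417), and the 2 changes differed by -4.87 (adjusted p = 0.0001). In the AD model Abca1 did not pass the test (log2 change 0.56, adjusted p = 0.229).

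Abcg1 rose by 2.62 ± 0.21 in the AD model and by 3.11 ± 0.21 after Aβ (adjusted p = 8.93e-05 and 2.85e-05). Nr1h3, which encodes the LXRα receptor, had 8.12 and 6.40 FPKM in AD model libraries, against 2.55 and 2.15 FPKM in AD control libraries, and 11.7 and 8.48 FPKM in Aβ-treated libraries, against 2.19 and 2.17 FPKM in Aβ control libraries. It rose by 1.30 and 1.79 on the log2 scale, and its log2 change in the Ogt cKO was -0.28 (adjusted p = 0.199). Enzymes that make or clear oxysterols moved in the Ogt cKO: Ch25h had 49.3 and 61.8 FPKM in Ogt cKO libraries, against 0.943 and 0.359 FPKM in their control (log2 change 5.11 ± 0.86, adjusted p = 0.00353), and Cyp27a1 had 0.673 and 0.602 FPKM in Ogt cKO libraries, against 5.59 and 3.46 FPKM in their control (log2 change -1.73 ± 0.25, adjusted p = 0.00216). Cyp7b1, which clears oxysterols, rose in all 3 experiments, by 0.84 in the Ogt cKO (adjusted p = 0.00392), 1.15 in the AD model (adjusted p = 0.00105) and 0.46 after Aβ (adjusted p = 0.0369). Microglia and macrophages are known to express several of these genes, their summed markers are given above for each experiment, and their part in the LXR values was not tested.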

How the data were processed

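RNA of 12 libraries (6 groups of 2) was compared. The authors deposited 1 table of FPKM with the gene lengths, built on mm10 per the submitters' processing notes; aligner, counter and annotation release were not given in the sources used here. Groups were taken from the sample descriptions in the labels. Multiplied by gene length, 100% of the FPKM came to whole reads (within 0.1 read), and these reads were used only in the voom and read-total alternatives. The FPKM were used as deposited, as log2(FPKM + 1), with a filter of 1 FPKM in 2 libraries. Because of the added 1, a log2 change understates the change of low genes. limma 3.58.1 (R 4.3.3) was fitted to all 12 libraries, with 1 mean per group, a trend on expression, two-sided tests and p-values adjusted by Benjamini and Hochberg across 14014 genes (threshold 0.05; 6 residual and 2.92 prior degrees of freedom), and was tested on simulated data. Python 3.11.15 with matplotlib 3.10.9 drew the figures.

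The 33 genes, the other lists and the tests were chosen with earlier results of these data known. Values by library are given for up to 8 called genes per comparison and up to 4 per difference of comparisons, by size of the log2 change, for Srebf1, Srebf2, Insig1, Insig2 and Scap, and for Scd1 with Scd2. Of each other list up to 3 called genes per comparison are named by p. Genes named beyond this rule (Fdps, Fads1, Nr1h3 and Abca1 outside their comparisons, overlapping genes, cell markers) were chosen after their values were seen. Marker lists are given by counts and summed FPKM, without a test of the list. Counts at an unadjusted p under 0.05 are given without the share of all genes, which was not counted at that threshold.

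Alternatives were pseudocounts (0.1 or 0.5), filters (none, or 5 FPKM), scalings (median of ratios, quantile or read total), voom on the recovered reads, the libraries of a comparison alone, a replicate block, a robust variance prior and leaving out each library. The deposited values had a median-of-ratios factor of 1.01 in each of the 12 libraries, so that scaling left them nearly unchanged. A crossed pairing of the Aβ libraries was added after seeing the data.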

Additional observations from a re-analysis of the deposited data

Results flagged for a closer look

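The changes of the same genes differed between experiments by the test of the difference itself. Between the Ogt cKO and the AD experiment 13 genes differed (40.6%, against 25.6% of all genes tested). The 4 with the largest difference were Cyp51 (2.29 on the log2 scale), Nsdhl (1.66), Fdft1 (1.63) and Mvk (1.49). Between the Ogt cKO and the Aβ experiment 19 genes differed (59.4%, against 52.3% of all genes tested), led by Cyp51 (3.36), Nsdhl (2.67), Scd1 (2.57) and Fdft1 (2.45). Between the AD and the Aβ experiment 2 genes differed (6.25%, against 6.14% of all genes tested), Insig1 (0.92) and Mvk (0.81). For each gene named so far the change in the experiment named first was the higher one. Among the 13 and the 19 genes, Scd2 alone had the lower change in the Ogt cKO experiment (-1.02 and -1.39). No group is large enough (n = 2) to be searched for single outlying libraries.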

How the results depend on the processing

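Of the genes called in a comparison with a control, 0 turned their sign under any alternative, while 5 uncalled genes in the Ogt cKO, 7 in the AD model and 2 after Aβ did. The count of genes called in the Ogt cKO (9 higher, 3 lower) became 4 higher and 6 lower with read totals, 4 and 7 with voom, 7 and 5 with quantile normalization, and 16 and 7 (23 in all) with its own 4 libraries alone. Leaving out 1 library gave 2 to 16 genes, 1 to 11 of them higher and 1 to 5 lower. The 12 AD genes became 6 with no filter and 0 with the 4 AD libraries alone, and 7 to 12 with 1 library left out. The 13 genes that differed between the Ogt cKO and the AD experiment became 8 to 16 with 1 library left out (8 without Ogt cKO control replicate 2). The 2 genes that differed between the AD and the Aβ experiment became 1 with either other pseudocount, median-of-ratios scaling, read totals or voom, 0 with quantile normalization or the 8 libraries of both experiments alone, and 0 to 6 with 1 library left out. The cause of these shifts was not tested.

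Replicate numbers were not shown to pair libraries: deviations of same-numbered libraries correlated at 0.033, 0.551 and -0.169 in the Ogt cKO, AD and Aβ experiments. The replicate block gave 9 higher and 5 lower genes for the Ogt cKO, 12 lower for the AD model and 24 lower after Aβ, and 4 differed between the AD and the Aβ experiment. Crossing the numbers of the Aβ-treated libraries gave 26 lower genes. Only Fdps was too low to test, at 3 to 47 reads, and the cause of its low count was not tested.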
